A study of Mus musculus with 8 samples.

Results

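Of the genes measured, 10 that mature β-cells keep low, or that β-cells take up when they lose their identity, were followed in pancreatic islets with and without the Wnt receptor Fzd9. Aldh1a3, Serpina7, Tnfrsf11b, Ldha, Slc16a1, Hk1, Acot7, Neurog3, Gast and Cxcl12 were chosen by name, and all 10 of them were found among the 22180 genes that had a probe set of their own. Each had exactly 1 such probe set, and a second probe set that Hk1 shares with its antisense neighbour Hk1os was not used. The samples were islet RNA of 4 Fzd9 WT and 4 Fzd9 KO mice, and that of each mouse was hybridised separately to an Affymetrix Mouse Gene 2.1 ST array. All 8 mice carried pIns-MycER, a Myc protein that tamoxifen switches on in β-cells, and RIP7-Bcl-xL, which protects these cells from apoptosis, both under insulin promoters. All received tamoxifen for 3 d, were 8 to 12 wk old and of both sexes per the methods of the study, and of the C57Bl/6 strain per the labels. Fzd9 was lacking in the whole body of the KO mice and not in β-cells alone, and there was no group without MycER or without tamoxifen. Insulinoma is the tissue named in the labels, whereas hand-picked islets, pooled per mouse, are described in the methods, and each value mixes all the cells of a pool. With such pools, fewer cells of a type and less RNA per cell cannot be told apart.

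β-cells are unusual in that they silence several genes that nearly all other cells use. Lactate dehydrogenase A (Ldha) and the lactate and pyruvate carrier MCT1 (Slc16a1) are kept low so that pyruvate enters the mitochondria and circulating lactate or pyruvate does not trigger insulin release, and the hexokinase Hk1, whose affinity for glucose is high, is kept low so that glucose use follows blood glucose. Such genes are called disallowed. When β-cells dedifferentiate under metabolic stress they lower insulin and take up genes of progenitor or fetal cells, among them Aldh1a3, Neurog3 and Gast. Ldha and Slc16a1 are also well-known targets of Myc, the factor that tamoxifen was given to switch on in all 8 mice.

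The background of each array was gauged by 1400 probe sets for olfactory and vomeronasal receptors (nose receptors), which islets are not expected to express. Their 95th percentile, called the background bound here, lay between 3.15 and 4.58 on the log2 scale over the 8 arrays and was highest in KO mouse 1. WT mouse 3 and KO mouse 1 correlated least with the other arrays (mean r = 0.897 and 0.893, against 0.917 to 0.926). These mice also had the highest means over 11 markers of acinar cells, 5.98 and 7.11, against 3.93 to 5.22 in the other 6. Of 9 β-cell markers 8 were above the background bound on all arrays, of 4 α-cell markers 3, of 10 stromal markers 4, of 9 endothelial markers 7, of 8 leukocyte markers 2 and of 4 glial markers none. A dim reading does not show that a transcript was absent. Neurod1, a transcription factor that β-cells are known to express, was above the bound on none of the 8 arrays. The probe set of Fzd9 itself was dim in both genotypes, with a WT mean of 2.88 ± 0.67 and a KO mean of 2.53 ± 0.35 (SD, n = 4 mice each), and does not check the labels, since no source used here says where its probes lie against the deleted part.

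Most of the 10 genes were read within the range of this background in both genotypes, some of them high in it. Slc16a1 and Gast aside, WT means lay at percentiles 67.6 (Aldh1a3) to 95.6 (Cxcl12) of the nose receptors. The KO means of the same genes lay at percentiles 67.8 (Hk1) to 92.1 (Cxcl12). Slc16a1 and Gast were above the bound on all 8 arrays, Cxcl12 on 4, Acot7 on 2, Serpina7 and Neurog3 on 1 each, and Ldha, Hk1, Aldh1a3 and Tnfrsf11b on none. The number of these genes above the bound of their array was 5, 3, 2 and 2 in WT mice 1 to 4 and 2, 4, 4 and 2 in KO mice 1 to 4. WT mouse 1, with the most, also had the lowest bound, and KO mouse 1, with 2, the highest.

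**Figure D1:**
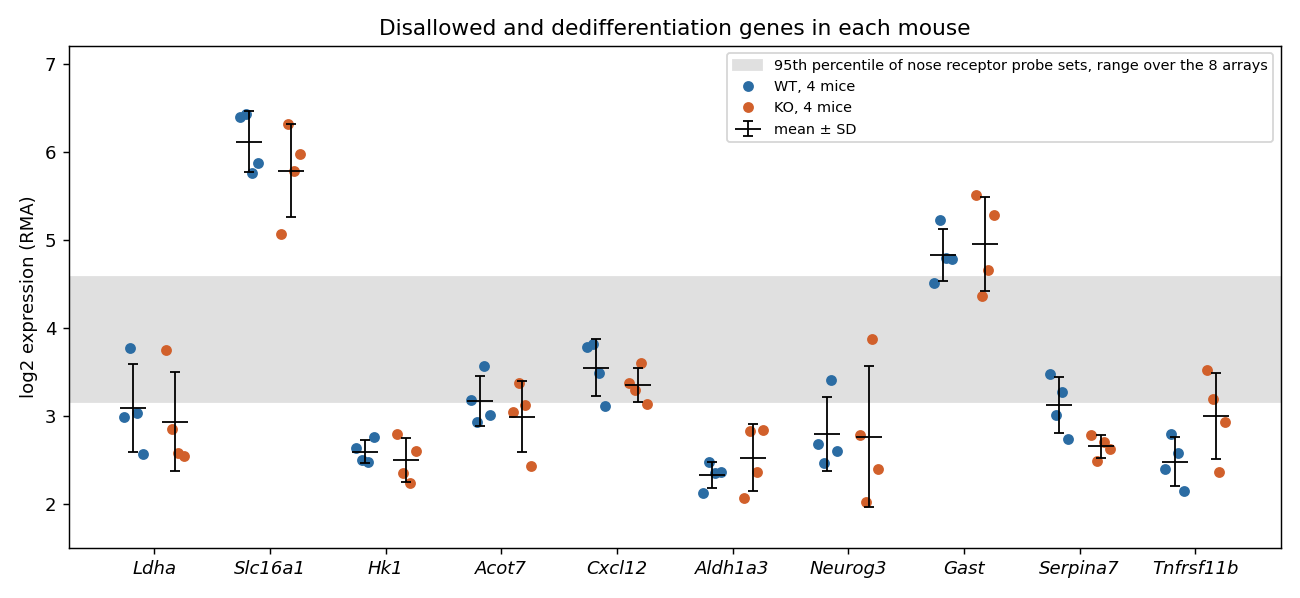
Log2 expression (RMA) of the 10 genes in each of 4 WT (blue) and 4 KO (orange) mice, with the mean and SD of each genotype in black and a grey band that spans the background bounds of the 8 arrays, from 3.15 to 4.58. Slc16a1 lies above the band in every mouse, and for each gene the 2 genotypes overlap.

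**Figure D2:**
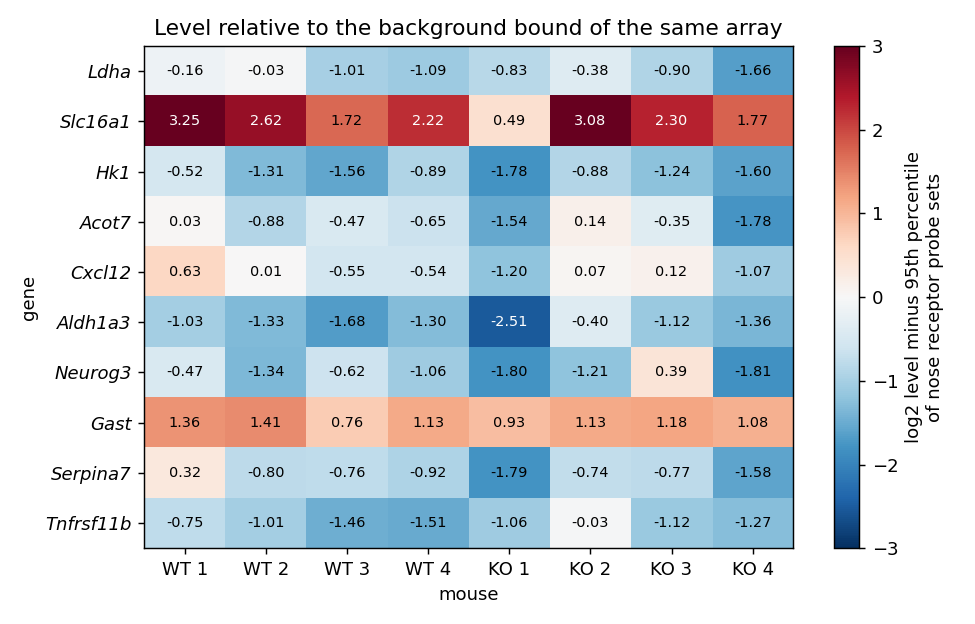
Level of each gene minus the background bound of the same array, in log2 units, for each mouse, red above the bound and blue below it. Slc16a1 runs from 0.49 above the bound in KO mouse 1 to 3.25 above it in WT mouse 1, and Gast from 0.76 to 1.41 above it.

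None of the 10 genes differed between KO and WT islets at the study's threshold, which asks for a fold change of 1.2 or more in either direction and for p below 0.05 before adjustment. By limma, fitted on all 41345 probe sets, 0 of 10 passed it and 0 had an unadjusted p under 0.05, and by the methods' t-test 1 did (Serpina7). An exact permutation test of 4 against 4 mice cannot give a two-sided p below 0.0286, and its p is given beside that of limma for single genes. The share of all probe sets that passed was 3.49%, with 1.59% lower and 1.9% higher in KO islets. Over the 22180 genes, each on its brightest probe set, the share was 2.45%. A count of 0 among 10 is close to either share. Of the 10 log2 differences 7 were negative and 3 positive, from −0.47 (Serpina7) to 0.52 (Tnfrsf11b). Their median was −0.13, against −6.37e-05 over the 22180 genes and 0.02 over all probe sets. The values of the genotypes overlapped for all 10 genes, where 2.36% of all probe sets did not overlap. Standard errors ran from 0.20 to 0.39, and the 95% intervals lay between −0.99 and 1.13. For 9 of the 10 genes, all but Tnfrsf11b, the interval stayed within a log2 difference of 1 in either direction, and smaller differences were not resolved with 4 mice a group. For the 8 genes that were not above the bound on all arrays the interval describes the probe signal and sets no limit to a change of the transcript. Adjusted p-values from limma were 1 for all 10.

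**Figure D3:**
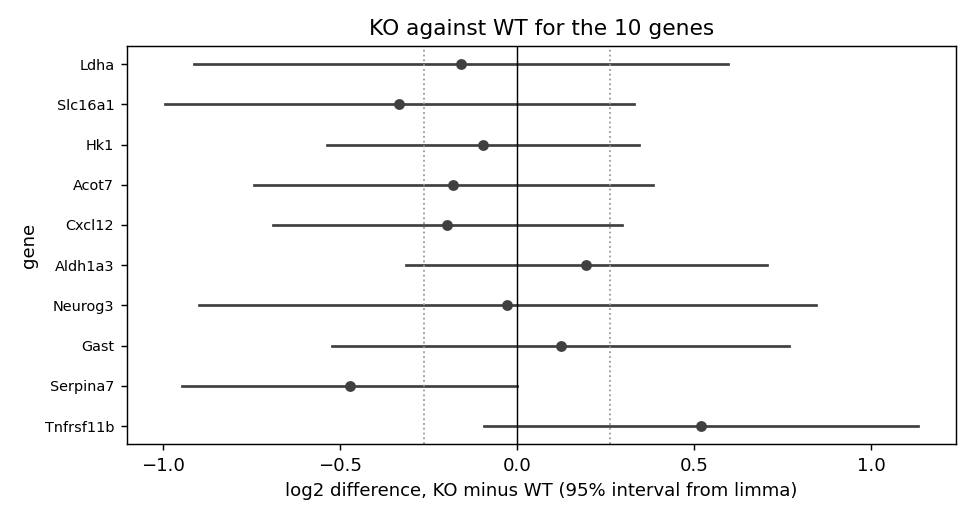
Log2 difference between KO and WT islets for the 10 genes (points) with the 95% interval from limma (lines, n = 4 mice a group) and dotted lines at a fold change of 1.2 in either direction. Each interval reaches across 0, that of Serpina7 by a narrow margin with an upper end of 0.0003.

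The lactate pair, Ldha and Slc16a1, is shown first with its promoters. Myc binds the sequence CACGTG, an E-box, and tamoxifen was given to every mouse to switch on MycER. How active MycER was in each mouse was not measured. Before adjustment the probe set of Myc fell, with a log2 difference of −0.87 (standard error 0.275). That of Esr1, which encodes an estrogen receptor (ER), did not pass the threshold, with a log2 difference of 0.16 (standard error 0.19). It was above the background bound on all 8 arrays, from 7.49 in WT mouse 4 to 8.15 in KO mouse 3. After longer tamoxifen treatment, the paper reports that MycER, stained with an antibody to ER, was even higher in KO islets. Whether the probe set of Myc or that of Esr1 reads MycER was not tested. Promoter sequences of RefSeq (GRCm38.p6) were matched for 8 of the 10 genes, in 11 windows, and the 250 bases before each start were searched. Ldha lies at chr7:46842274-46855627 and Slc16a1 at chr3:104638664-104658462. CACGTG reads the same on both strands. It was found in windows of 2 of the 8 genes, Ldha and Slc16a1, and in 6.02% of all 32851 windows (6.86% of the 27025 genes). A match is a description of the letters and not a measured binding site. Below, 5′ to 3′, the E-box is in capitals. The first window is chr7:46845554-46845803 on the plus strand, before 1 of the 2 starts matched for Ldha, with E-boxes that begin 145 and 48 bases before that start, and the other Ldha window held none. Both Ldha windows lie within the annotated span of the gene, and the Slc16a1 window ends at the base before it. The second is chr3:104638414-104638663 on the plus strand, with an E-box that begins 200 bases before the start of Slc16a1.
Ldha: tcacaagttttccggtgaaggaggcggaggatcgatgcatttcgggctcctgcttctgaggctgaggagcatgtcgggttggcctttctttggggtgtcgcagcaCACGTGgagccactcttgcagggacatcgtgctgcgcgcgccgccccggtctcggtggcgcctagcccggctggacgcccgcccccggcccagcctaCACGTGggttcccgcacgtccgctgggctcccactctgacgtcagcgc
Slc16a1: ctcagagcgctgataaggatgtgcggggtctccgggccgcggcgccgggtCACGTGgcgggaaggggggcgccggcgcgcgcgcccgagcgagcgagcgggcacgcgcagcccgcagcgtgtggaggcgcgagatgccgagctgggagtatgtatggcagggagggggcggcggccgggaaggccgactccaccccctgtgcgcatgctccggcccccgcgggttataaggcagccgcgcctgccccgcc

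Ldha, which turns pyruvate into lactate, was at 2.99, 3.77, 3.03 and 2.57 in WT mice 1 to 4 and at 3.75, 2.85, 2.57 and 2.55 in KO mice 1 to 4. WT mouse 2 and KO mouse 1 were the high ones and the other 6 lay close together, below the background bound in every mouse. The WT mean was 3.09 ± 0.50 and the KO mean 2.93 ± 0.56 (SD, n = 4 mice each), a log2 difference of −0.16 (standard error 0.34, limma p = 0.650, exact permutation p = 0.543, 95% interval −0.91 to 0.60). Without KO mouse 1 the difference was −0.43 and without WT mouse 2 it was 0.07, neither past the threshold. Ldhb, the subunit that favours the reverse reaction, was above the bound on 1 array, with a log2 difference of −0.10 (standard error 0.20).

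Slc16a1, which carries lactate and pyruvate across the plasma membrane, was above the background bound in every mouse, at 6.40, 6.43, 5.75 and 5.87 in WT mice 1 to 4 and at 5.06, 6.31, 5.78 and 5.97 in KO mice 1 to 4. Only KO mouse 1 lay below all WT mice, and the other 3 KO mice lay within the WT range. The WT mean of 6.11 ± 0.35 and the KO mean of 5.78 ± 0.53 (SD, n = 4 mice each) were both at percentile 99.9 of the nose receptors. The log2 difference was −0.33 (standard error 0.30, limma p = 0.290, exact permutation p = 0.4, 95% interval −0.99 to 0.33), and it was −0.09 without KO mouse 1. KO mouse 1 had the highest acinar markers of all mice and WT mouse 3, the lowest WT mouse for Slc16a1, the highest of its genotype. The probe set thus read a disallowed gene above background in islets of both genotypes. Which cells of the islet pools it came from was not tested.

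The partners of MCT1 were read at different distances from the background. Bsg, the chaperone that brings MCT1 to the membrane, was above the bound on all 8 arrays, with a log2 difference of −0.21 (standard error 0.27). Slc16a3, the lactate exporter MCT4, and Slc16a7, the carrier MCT2, were above it on none, with log2 differences of 0.24 (standard error 0.18) and −0.11 (standard error 0.20). None of these passed the threshold. Pkm, the pyruvate kinase that makes pyruvate, was at −0.20 (standard error 0.19). Mpc1, a subunit of the carrier that takes pyruvate into mitochondria, was at 4.31, 4.23, 4.23 and 4.25 in the WT mice and at 4.15, 3.99, 3.71 and 4.18 in the KO mice. The 4 WT mice all lay above the 4 KO mice for Mpc1, with a log2 difference of −0.25 (standard error 0.18, limma p = 0.207, exact permutation p = 0.0286) that did not pass. Any gene without overlap gets this permutation p. Values did not overlap for 2.36% of all 22180 genes, and for 2 of the 30 genes from glucose uptake to lactate, Mpc1 and Pfkl. The further probe set of Mpc1 overlapped, at −0.17 (standard error 0.47). Pdk1, a kinase that shuts off pyruvate dehydrogenase, was at −0.05 (standard error 0.24).

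Hk1, the hexokinase with high affinity for glucose, was at 2.63, 2.49, 2.48 and 2.76 in WT mice 1 to 4 and at 2.79, 2.35, 2.24 and 2.60 in KO mice 1 to 4. It was below the bound in all 8 mice and varied least of the 10 genes, with an SD over all mice of 0.19. The means of 2.59 ± 0.13 and 2.50 ± 0.25 (SD, n = 4 each) gave a log2 difference of −0.10 (standard error 0.20, limma p = 0.637, exact permutation p = 0.543, 95% interval −0.54 to 0.34), the narrowest interval of the 10. Hk2 and Hk3, related hexokinases, were below the bound on all arrays too, with log2 differences of −0.20 (standard error 0.26) and −0.11 (standard error 0.20).

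Acot7, which splits long-chain acyl-CoA into free fatty acid and CoA, was at 3.18, 2.93, 3.56 and 3.01 in WT mice 1 to 4 and at 3.04, 3.37, 3.13 and 2.42 in KO mice 1 to 4. KO mouse 4 was the lowest, and the other 3 KO mice lay within the WT range. The means were 3.17 ± 0.28 and 2.99 ± 0.40 (SD, n = 4 each), a log2 difference of −0.18 (standard error 0.25, limma p = 0.493, exact permutation p = 0.514, 95% interval −0.74 to 0.38). Without KO mouse 4 the difference was 0.01. Of 12 acyl-CoA thioesterases measured, Acot7 among them, none passed the threshold, with a median log2 difference of 0.06. Acot13, a mitochondrial member, was the one above the bound on all arrays, at −0.15 (standard error 0.34).

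Cxcl12, a chemokine that stromal and endothelial cells secrete and that mature β-cells keep low, was at 3.78, 3.81, 3.48 and 3.11 in WT mice 1 to 4 and at 3.38, 3.30, 3.60 and 3.13 in KO mice 1 to 4. WT mice 1 and 2 were above all KO mice, and WT mouse 4 was below all of them. The means were 3.55 ± 0.33 and 3.35 ± 0.19 (SD, n = 4 each), a log2 difference of −0.20 (standard error 0.22, limma p = 0.394, exact permutation p = 0.371, 95% interval −0.69 to 0.30). Its receptors Cxcr4 and Ackr3 were at −0.04 (standard error 0.42) and −0.01 (standard error 0.21), Cxcr4 above the bound on 5 arrays and Ackr3 on none.

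Cxcl12 went with the stromal markers from mouse to mouse, with the highest Pearson's r of any pair of a gene and a marker list that was looked at, though not the highest by rank or with the genotype means removed. The mean over 10 stromal markers was 4.95, 5.57, 4.43 and 3.83 in WT mice 1 to 4 and 4.65, 4.58, 4.57 and 3.85 in KO mice 1 to 4. Mouse 4 of each genotype was thus the lowest for both measures and WT mouse 2 the highest for both. Over the 8 mice Pearson's r was 0.898 (exact permutation p = 0.00246) and Spearman's coefficient 0.81 (exact permutation p = 0.0218). This was 1 of 90 relations, of the 10 genes with 9 marker lists, all two-sided and computed after the values had been seen, and none passed the adjustment over them (adjusted p = 0.221 for r and 0.551 for Spearman's coefficient here). With the genotype means removed r was 0.895, and without the 2 mice farthest from the median of the stromal markers it was 0.818 (exact permutation p = 0.05). Within a genotype there were too few mice for a value.

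Unadjusted, r passed for 3 more pairs, so that 4 of the 90 relations had an exact permutation p under 0.05. At that threshold about 1 in 20 would pass by chance, and 4 of 90 is close to that share. For Cxcl12 with 9 endothelial markers r was 0.718 and Spearman's coefficient 0.714 (exact permutation p = 0.0484 and 0.0576), and r was 0.937 with the genotype means removed and 0.636 without the 2 farthest mice. For Ldha with the stromal markers r was 0.744 and Spearman's coefficient 0.786 (exact permutation p = 0.0323 and 0.0279), with r at 0.736 and 0.453 after the same steps. For Slc16a1 with the acinar markers r was −0.753 and Spearman's coefficient −0.714 (exact permutation p = 0.0323 and 0.0576), with r at −0.747 and −0.549. All kept their sign, and none of the 3 had an unadjusted p under 0.05 in the 6 mice left. By Spearman's coefficient alone 4 other pairs passed unadjusted. These were Slc16a1 with 4 glial markers (−0.905, exact permutation p = 0.00456) and with 7 duct markers (0.762, exact permutation p = 0.0368), and the acinar markers with Aldh1a3 (−0.857, exact permutation p = 0.0107) and with Neurog3 (0.762, exact permutation p = 0.0368). Their r was −0.692, 0.645, −0.632 and 0.374, and without the 2 farthest mice −0.839, 0.742, −0.149 and 0.558. Of the glial markers none was above the bound on all arrays, of the 11 acinar markers 5 and of the 7 duct markers 1. Ldha and Aldh1a3 were themselves above it on no array and Neurog3 on 1. The lowest adjusted p over the 90 relations was 0.221 for r and 0.411 for Spearman's coefficient.

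**Figure D4:**
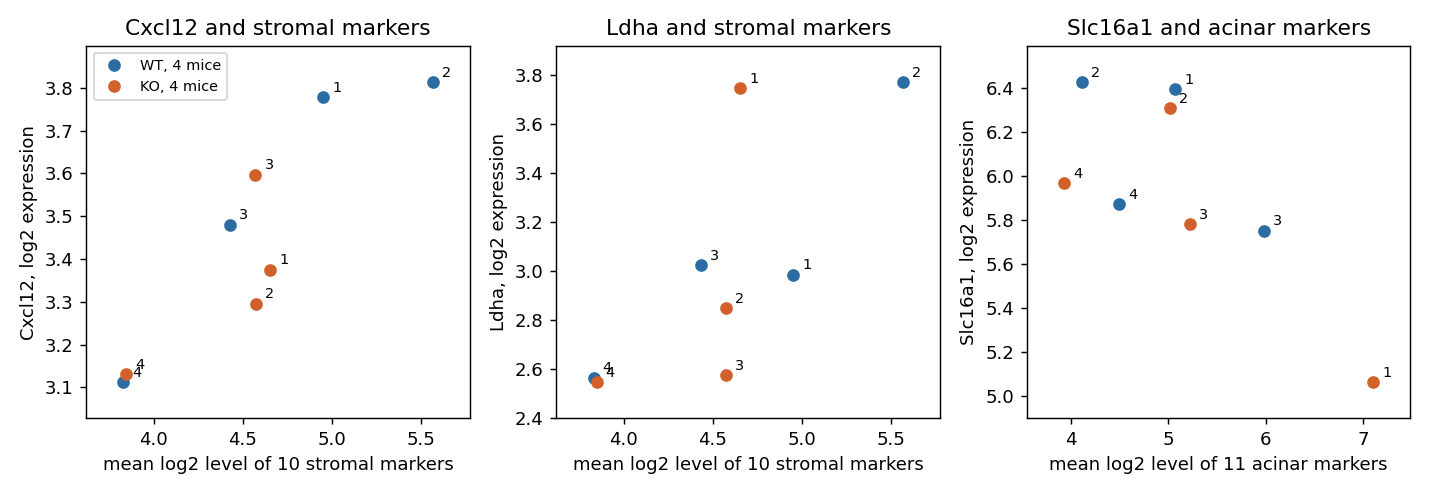
Log2 expression of Cxcl12, Ldha and Slc16a1 in each mouse against the mean log2 level of 10 stromal or 11 acinar markers in the same mouse, WT in blue and KO in orange, with the mouse number beside each point. Cxcl12 goes from 3.11 to 3.81 as the stromal markers go from 3.83 to 5.57, and the lowest Slc16a1 value belongs to KO mouse 1, whose acinar markers were at 7.11.

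Among the dedifferentiation genes, Aldh1a3, which makes retinoic acid from retinal and marks failing β-cells, was at 2.12, 2.47, 2.35 and 2.36 in WT mice 1 to 4 and at 2.06, 2.83, 2.36 and 2.84 in KO mice 1 to 4. KO mice 2 and 4 were the highest and KO mouse 1 the lowest of all 8, and none was above its bound. The means were 2.33 ± 0.15 and 2.52 ± 0.38 (SD, n = 4 each), a log2 difference of 0.20 (standard error 0.23, limma p = 0.412, exact permutation p = 0.371, 95% interval −0.31 to 0.71). The related enzymes Aldh1a1 and Aldh1a2 were at −0.15 (standard error 0.28) and 0.30 (standard error 0.33). Among all 22180 genes 2.45% passed the threshold. Of 19 genes of retinoid handling measured, Aldh1a3 among them, 1 rose, none fell and 18 did not pass. It was Crabp1, a carrier of retinoic acid in the cytosol, at 1.79, 1.86, 1.66 and 2.06 in the WT mice and at 2.77, 1.75, 2.49 and 2.61 in the KO mice, with KO mouse 2 in the WT range. The log2 difference was 0.56 (standard error 0.25, limma p = 0.048, exact permutation p = 0.114, adjusted p = 1). Crabp1 was below the bound on all 8 arrays, and without WT mouse 1, 2 or 3, or KO mouse 1, 3 or 4, the difference of 0.44 to 0.56 did not pass, nor did it by the methods' t-test, with quantile scaling (0.49), cyclic loess (0.51) or array weights (0.45), or with the mouse number as a block.

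Neurog3, the transcription factor that starts the endocrine program in the embryonic pancreas, varied most of the 10 genes, with an SD over all mice of 0.59. It was at 2.68, 2.47, 3.41 and 2.60 in WT mice 1 to 4 and at 2.77, 2.02, 3.87 and 2.39 in KO mice 1 to 4. Mouse 3 of each genotype was the highest of its genotype, and KO mouse 3 alone was above its bound, by 0.39. The means of 2.79 ± 0.42 and 2.76 ± 0.80 (SD, n = 4 each) differed by −0.03 (standard error 0.39, limma p = 0.946, exact permutation p = 0.971, 95% interval −0.90 to 0.84). Without KO mouse 3 the log2 difference was −0.40 and without KO mouse 2 it was 0.22, neither past the threshold.

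Of 16 genes of the endocrine cascade measured, Neurog3 among them, none passed the threshold, with a median log2 difference of 0.05. Insm1 and Nkx2-2, factors that act after Neurog3 and stay on in β-cells, were above the bound on all arrays, with log2 differences of 0.25 (standard error 0.23) and 0.24 (standard error 0.21). Pax4, which favours the β-cell fate, was at 3.78, 3.45, 3.62 and 3.99 in the WT mice and at 4.01, 4.57, 3.56 and 4.64 in the KO mice. In all, 3 KO mice lay above all WT mice for Pax4 and KO mouse 3 within their range, for a log2 difference of 0.48 (standard error 0.27, limma p = 0.107, exact permutation p = 0.171). Without KO mouse 3 it was 0.70 and passed the threshold. Sox9, a factor of duct and progenitor cells, had a log2 difference of −0.49 (standard error 0.33), and Hes1, the Notch target that represses Neurog3, one of 0.02 (standard error 0.22).

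Gast, which encodes gastrin, a hormone of the fetal pancreas and the adult stomach, was above the bound in every mouse. It was at 4.51, 5.22, 4.79 and 4.78 in WT mice 1 to 4 and at 5.50, 4.36, 4.65 and 5.28 in KO mice 1 to 4. The KO mice held both the highest and the lowest value, so that their range enclosed that of the WT mice. The means of 4.83 ± 0.29 and 4.95 ± 0.53 (SD, n = 4 each) lay at percentiles 99.5 and 99.4 of the nose receptors, with a log2 difference of 0.12 (standard error 0.29, limma p = 0.678, exact permutation p = 0.743, 95% interval −0.52 to 0.77). The gastrin and cholecystokinin receptors Cckbr and Cckar, and the related hormone Cck, were above the bound on none of the arrays, with log2 differences of 0.02, −0.04 and 0.15.

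Serpina7, which encodes thyroxine-binding globulin, came nearest to the threshold. It was at 3.47, 3.01, 3.27 and 2.74 in WT mice 1 to 4 and at 2.79, 2.49, 2.70 and 2.63 in KO mice 1 to 4. WT mice 1, 2 and 3 lay above all KO mice, and WT mouse 4 lay below KO mouse 1 alone. The means of 3.12 ± 0.32 and 2.65 ± 0.13 (SD, n = 4 each) gave a log2 difference of −0.47 (standard error 0.21, limma p = 0.0501, exact permutation p = 0.0571, adjusted p = 1, 95% interval −0.94 to 0.0003). It passed under 3 other scalings of the arrays and under the methods' t-test, and did not pass with the mouse number as a block. WT mouse 1 was the only mouse above its bound, by 0.32, and both means were inside the range of the nose receptors, at percentiles 91.3 and 75.8.

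Ttr and Serpina6, which encode carriers of thyroid hormone and of glucocorticoids, were looked at beside it. Ttr, which α-cells express strongly, had a log2 difference of −0.61 (standard error 0.29, limma p = 0.0629, exact permutation p = 0.0857) that did not pass, and it passed without WT mouse 3 (−0.77), without KO mouse 4 (−0.72), without WT mouse 3 and KO mouse 1 (−0.77), with quantile scaling (−0.57) and among 1-gene probe sets (−0.61). Serpina6 was at 2.16, 2.47, 3.03 and 2.72 in the WT mice and at 3.95, 3.20, 2.74 and 3.48 in the KO mice, with KO mouse 3 in the WT range. It rose by a log2 difference of 0.75 (standard error 0.29, limma p = 0.0298, exact permutation p = 0.0571, adjusted p = 1) and was below the bound on all 8 arrays. Without KO mouse 1 the difference was 0.55 and did not pass, nor did it without WT mouse 1 (0.60), WT mouse 2 (0.71) or KO mouse 4 (0.70). It did not pass by the methods' t-test or with the mouse number as a block either.

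Tnfrsf11b, which encodes osteoprotegerin, a decoy that binds RANK ligand and TRAIL, had the largest positive difference of the 10 genes. It was at 2.40, 2.80, 2.58 and 2.15 in WT mice 1 to 4 and at 3.51, 3.19, 2.36 and 2.93 in KO mice 1 to 4. KO mice 1, 2 and 4 lay above all WT mice and KO mouse 3 below 3 of them. The means were 2.48 ± 0.27 and 3.00 ± 0.49 (SD, n = 4 each), a log2 difference of 0.52 (standard error 0.27, limma p = 0.0875, exact permutation p = 0.143, 95% interval −0.09 to 1.13). Without KO mouse 3 it was 0.73 and passed the threshold, with an adjusted p of 1. No mouse was above its bound, KO mouse 2 coming nearest at 0.03 below it. The ligands Tnfsf11 (RANK ligand) and Tnfsf10 (TRAIL) and the receptor Tnfrsf11a (RANK) had log2 differences of 0.14 (standard error 0.25), −0.12 (standard error 0.38) and −0.18 (standard error 0.48).

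Of 33 partners and paralogs of the 10 genes, 30 had a probe set of their own, of which 1 rose (Serpina6), none fell and 29 did not pass. The other 3 were not analysed here. Of the 30, 7 were above the bound on all arrays and 12 on none. Among all 22180 genes 2.45% passed the threshold, and 1 of 30 is close to that share.

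**Figure D5:**
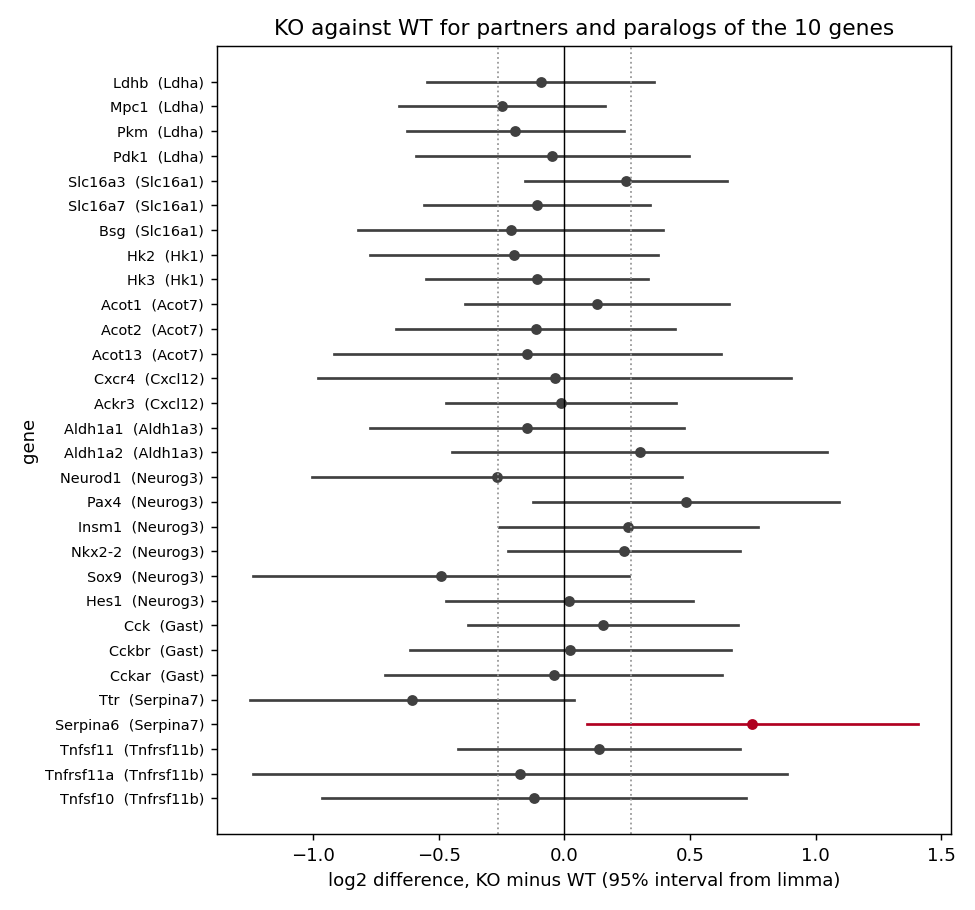
Log2 difference between KO and WT islets (points) with the 95% interval from limma (lines, n = 4 mice a group) for 30 partners and paralogs, each with the gene of the 10 it goes with in brackets, and dotted lines at a fold change of 1.2. Serpina6, in red, is the one that passed the threshold, at 0.75.

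In the wider lists few genes passed. Of 24 disallowed genes measured, the 4 metabolic ones and Cxcl12 among them, 0 passed by limma and 0 by the methods' t-test, with a median log2 difference of −0.15. Oat, Smad3, Zyx and Yap1 had log2 differences of 0.20, 0.12, −0.37 and 0.11. Of 16 dedifferentiation genes measured 0 passed by limma and 1 by the methods' t-test (Serpina7), with a median of −0.0037. Npy, a peptide of immature β-cells, was at −1.27 (standard error 0.72, limma p = 0.109, exact permutation p = 0.257), the largest difference of that list, and Penk and Mycl were at −0.47 and 0.14. Npy was above the bound on 7 arrays and Penk and Mycl on at most 1. Without WT mouse 4 both Npy, at −1.94, and Penk, at −0.78, passed. Of 30 genes from glucose uptake to lactate 0 passed by limma and by the methods' t-test, with 24 lower, 6 higher and a median of −0.11. Without WT mouse 3, the glucose carrier Slc2a1 fell by 0.74 and Pdha1, a subunit of pyruvate dehydrogenase, by 0.73. Of 18 genes of the secreted members and their receptors and carriers 1 rose (Serpina6) and none fell, with a median of −0.04. Cxcl12, Gast, Serpina7 and Tnfrsf11b were counted among them. Over all 22180 genes 2.45% passed, 1.17% lower and 1.28% higher in KO islets.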

How the data were processed

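Islet RNA of 4 Fzd9 WT and 4 Fzd9 KO mice was measured on 1 array per mouse. The deposited values are log2 expression per probe set, made by the authors with RMA, which subtracts background, scales the arrays to each other and combines the probes of a set. Partek is also named in the submitters' notes, and versions, settings and build are not given in the sources used here. Array medians lay between 2.91 and 3.17 as deposited, and no scaling was added. How the RMA steps changed the differences of dim probe sets was not tested. Of 41345 probe sets 23521 name 1 gene, 1820 several and 16004 none in the platform annotation. Of the sets that name 1 gene, 23328 were matched to a current symbol through Entrez ID, and the brightest probe set stood for a gene. KO and WT were compared with limma (version 3.58.1, R 4.3.3) on all probe sets without a filter. The words rose and fell are kept for genes past the study's threshold (fold change of 1.2 or more, p below 0.05 before adjustment), for which its methods name no array test. Benjamini-Hochberg adjustment was over all probe sets. The number of arrays limits the precision. The members and lists were chosen with earlier results of these data known. Genes to name were the 10 members, their listed partners and paralogs, list members past the threshold (at most 4 a list), islet hormones, and Fzd9, Myc and Esr1, and not all of these are in the text. Oat, Smad3, Zyx, Yap1, Npy, Penk, Mycl, Slc2a1, Pdha1 and Pfkl fall outside that rule and were chosen after their values were seen. Marker lists were given as means per mouse. The numbers of the mice are shared by the genotypes without pairing them (correlations of deviations between mice of the same number from −0.1 to 0.238). The limma fit and its calls were tested on simulated data, with changes larger than those of the 10 genes. Alternatives were other limma settings, the methods' t-test, 3 scalings, limits to bright or 1-gene probe sets, the mean of probe sets, a block for the mouse number, adjusted p-values, and leaving out mice. Exact permutation tests over the mice and relations to marker lists were added after the values had been seen.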

Additional observations from a re-analysis of the deposited data

Results flagged for a closer look

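In 4 of 96 groups of 4 mice, over the 48 genes of the naming rule, 1 mouse stood far from the other 3 of its genotype, where chance gives about 1 in 20 groups, or 4.8. None of the 20 groups of the 10 disallowed and dedifferentiation genes was among them. In KO mouse 1 Bsg was at 8.76, against 9.10 to 9.12 in the other KO mice, and Cckar at 3.15, against 1.90 to 2.01. Acot1 was at 3.08 in KO mouse 3, against 2.49 to 2.52. Fzd9 was at 2.01 in KO mouse 4, against 2.65 to 2.76.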

How the results depend on the processing

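The count of the 10 genes past the threshold was 0, and it was 1, Serpina7 each time, under the methods' t-test, quantile scaling, median centring, cyclic loess, a fit on 1-gene probe sets alone and the mean of probe sets. Leaving out each mouse in turn gave 0 to 1, Serpina7 without WT mouse 4 (−0.60) and Tnfrsf11b without KO mouse 3. The same settings gave 1 dedifferentiation gene, and leaving out each mouse 0 to 3. Of the retinoid genes 0 passed, against 1, with array weights, the methods' t-test, quantile scaling, cyclic loess, bright probe sets alone, the replicate block, adjusted p-values and without WT mouse 3 and KO mouse 1 together, and 0 to 1 with each mouse left out. For the secreted members with their receptors and carriers the count was 1. Quantile scaling and 1-gene probe sets gave 3. Median centring, cyclic loess, the mean of probe sets and leaving out WT mouse 3 and KO mouse 1 gave 2. Bright probe sets alone, the block and adjusted p-values gave 0. Leaving out each mouse gave 0 to 2, and the methods' t-test called 1 (Serpina7 in place of Serpina6). Of the genes from glucose to lactate 2 passed, against 0, without WT mouse 3 and KO mouse 1 together (Slc2a1 and Pdha1), and 0 to 2 with each mouse left out. Of the endocrine cascade 0 to 1 passed with each mouse left out. Over all probe sets 1444 passed, 630 with bright ones alone and 770 with 1-gene ones alone (fewer are tested there), 0 by adjusted p-values (the lowest was 0.095) and 1201 to 1913 with each mouse left out. The sets that passed were 786 higher and 658 lower, against 726 and 796 after quantile scaling, 735 and 799 after cyclic loess and 631 and 773 after median centring. With the dimmest probe sets in place of the nose receptors as background, 0 genes of the 10 were below the bound on all arrays, against 4, and with a 99th percentile 8 were, while 0 were above it on all arrays, against 2. The mouse number as a block gave 1484 calls over all probe sets, with 1 of 4 same-numbered pairs correlated over 0.1, and it ended the calls of Crabp1 and Serpina6. For the 4 relations to markers that r passed unadjusted, leaving out the 2 farthest mice ended each call, and removing genotype means, which permutes within genotypes, that of Slc16a1 with acinar markers, though r moved only from −0.753 to −0.747; Ldha with stromal markers, at 0.736, kept its call. The cause of these changes was not tested except as stated. Most of the 10 genes were read near background, so that a change of their transcripts could be missed.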
